A study of Mus musculus with 4 samples.

Results

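Of the 28505 H3K4me3 peaks listed for LPS-treated mouse macrophages, 735 held 50 tags or more, lay on chromosomes 1 to 19 or X and shared no base with any H3K4me3 peak of the PBS-treated macrophages. These 735 regions, called LPS-only here, were selected on the 2 H3K4me3 lists themselves. They made up 4.06% of the 18087 LPS peaks that passed the same tag minimum, and the other 17352, called shared, met a PBS peak. The same rule with the libraries exchanged gave 2114 PBS-only peaks, 10.2% of 20816. The macrophages came from the peritoneal cavity of C57BL/6 mice aged 8 weeks, were elicited with thioglycollate broth, adhered to dishes and received lipopolysaccharide (LPS) or phosphate-buffered saline (PBS) for 24 h. Chromatin immunoprecipitation sequencing was done with antibodies to H3K4me3 (histone H3 trimethylated on lysine 4) and H3K9me3 (the same on lysine 9), giving 4 groups of 1 library, both marks under both treatments. How many animals were pooled is not given in the sources used here. The labels name no genotype beyond the strain, and the groups used here differ only in antibody and treatment.

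The filtered libraries held 26748289 to 29681491 tags, a tag being 1 read position that the caller kept, and the PBS H3K4me3 library was the deeper of its pair. With 1 library per group there is no replicate check and no test between treatments. The intervals given below are exact 95% Clopper-Pearson intervals, or for medians 95% intervals read from ranked values, and both cover counting error or the spread among peaks only. A region outside the PBS list was under the caller's threshold there and may still carry the mark. In a bulk library, fewer cells with a mark and less of the mark per cell cannot be told apart. As a limited check of the cell type, 26 of 35 macrophage identity genes had a shared H3K4me3 peak within 1 kb of a start. Among markers of other blood cells, 4 of 18 T cell, 2 of 13 B cell and 1 of 16 neutrophil markers had one. So did 2 of 14 eosinophil and mast cell, and 7 of 21 mesothelial, fibroblast and endothelial markers. Lists that are not macrophage markers could also score high, with 23 of 26 housekeeping and 52 of 71 developmental homeobox and patterning genes. Neuronal genes had 12 of 26, so the measure alone does not identify macrophages.

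H3K4me3 is laid down by the SET1 and MLL methyltransferase complexes and sits around the starts of active and poised genes, most strongly at CpG-rich promoters. Broad stretches of it are known from genes that define a cell's identity. H3K9me3, written by SUV39H and SETDB1 enzymes, marks heterochromatin and silenced repeats. LPS binds Toll-like receptor 4 and switches on inflammatory genes through NF-kB and AP-1, and antiviral genes through IRF3 and type I interferon.

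The promoters under LPS-only peaks ranged from CpG-dense to nearly CpG-free, and the 4 sequences below were chosen, after their values were seen, to show that range. Each is 300 bases, 250 before and 50 after the gene start, from RefSeq on GRCm38.p6, written in the direction of the gene with every CG in capitals. Fam20c (chr5:138754831-138755130, plus strand) has 47 CG pairs and Tnfaip2 (chr12:111442411-111442710, plus strand) has 23. Lcn2 (chr2:32387690-32387989, minus strand) and Camp (chr9:109849407-109849706, minus strand) have 3 each.
Fam20c: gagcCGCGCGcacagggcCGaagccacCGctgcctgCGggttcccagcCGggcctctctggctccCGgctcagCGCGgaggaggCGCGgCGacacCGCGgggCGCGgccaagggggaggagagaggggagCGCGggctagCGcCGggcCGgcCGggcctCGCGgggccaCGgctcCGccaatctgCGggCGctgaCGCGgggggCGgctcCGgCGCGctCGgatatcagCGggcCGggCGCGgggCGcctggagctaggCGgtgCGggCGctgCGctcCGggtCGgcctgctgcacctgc
Tnfaip2: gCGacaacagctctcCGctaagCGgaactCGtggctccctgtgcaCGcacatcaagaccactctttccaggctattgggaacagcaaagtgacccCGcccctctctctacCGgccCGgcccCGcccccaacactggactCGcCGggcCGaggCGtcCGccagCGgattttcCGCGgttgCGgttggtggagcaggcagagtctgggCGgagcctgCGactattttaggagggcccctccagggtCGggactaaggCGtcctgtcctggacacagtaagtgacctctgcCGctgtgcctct
Lcn2: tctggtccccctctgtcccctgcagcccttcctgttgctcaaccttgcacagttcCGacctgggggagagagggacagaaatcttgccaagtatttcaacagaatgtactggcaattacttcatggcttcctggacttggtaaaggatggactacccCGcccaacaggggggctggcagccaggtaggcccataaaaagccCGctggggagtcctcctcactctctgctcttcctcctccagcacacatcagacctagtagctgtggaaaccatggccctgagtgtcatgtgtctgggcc
Camp: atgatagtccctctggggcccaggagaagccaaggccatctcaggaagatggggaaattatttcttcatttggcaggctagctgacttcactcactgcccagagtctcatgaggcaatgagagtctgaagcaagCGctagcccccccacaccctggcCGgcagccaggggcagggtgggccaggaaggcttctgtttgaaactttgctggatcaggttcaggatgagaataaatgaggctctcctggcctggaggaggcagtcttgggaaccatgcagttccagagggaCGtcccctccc

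A start of a protein-coding gene lay inside an LPS-only peak for 42 such windows, of 39 genes, of the 21044 windows in the table. Their median count of CG pairs was 15.5 (95% interval 7 to 23.0), below the 23.0 of the 10502 windows inside shared peaks and above the 12 (11 to 14.0) of the 241 windows inside PBS-only peaks. The interval of the LPS-only windows touches the shared median and spans the PBS-only one. Over all windows the median was 13.0. The LPS-only median was 23.5 (14.0 to 29.0) with a minimum of 100 tags and 24.0 (5 to 29.0) with a score of 100 or more, on the other side of the shared 23.0, so the direction of that difference depends on the minimum. Both intervals also hold 15.5. Their GC content had a median of 61.3% (57.3 to 64.7), against 63.3% in shared and 56.7% in PBS-only windows.

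Motif letters were searched on both strands. The kappa B consensus, the site of NF-kB, occurred in 6 of the 42 LPS-only windows (14.3%), in 5.74% of shared windows, in 7.05% of PBS-only windows and in 4.86% of all windows. Matches of different motifs can overlap, and 6 windows give an imprecise share. The windows of Slc43a2 (chr11:75531444-75531743, plus strand), a transporter of large neutral amino acids, and Pnpla2 (chr7:141454938-141455237, plus strand), the adipose triglyceride lipase, are shown with the kappa B match in capitals.
Slc43a2: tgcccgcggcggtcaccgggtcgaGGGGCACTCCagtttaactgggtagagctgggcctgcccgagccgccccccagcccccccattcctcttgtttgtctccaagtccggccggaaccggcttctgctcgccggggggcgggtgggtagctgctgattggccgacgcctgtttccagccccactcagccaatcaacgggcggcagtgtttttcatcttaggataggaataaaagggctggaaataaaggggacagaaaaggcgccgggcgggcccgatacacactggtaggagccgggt
Pnpla2: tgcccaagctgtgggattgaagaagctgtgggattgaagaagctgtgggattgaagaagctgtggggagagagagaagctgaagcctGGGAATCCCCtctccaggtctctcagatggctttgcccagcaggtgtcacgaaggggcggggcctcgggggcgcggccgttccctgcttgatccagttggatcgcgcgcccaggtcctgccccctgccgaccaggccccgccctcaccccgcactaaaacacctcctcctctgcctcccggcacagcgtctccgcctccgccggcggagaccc

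The other windows with a kappa B match were those of Ankrd34a, Foxa3, Ppm1b and Cibar2. CCAAT was found in 54.8% of LPS-only windows, 34.9% of shared and 45.2% of PBS-only windows. GGGCGG, the GC box bound by Sp1-type factors, was found in 54.8%, 70.6% and 49.4%. The C/EBP letters TTGCNNAA were in 3 LPS-only windows (7.14%, and 10.3% of all windows), those of Sp140, Lcn2 and Slpi. TATAAA was in 3 (7.14%, and 12.7% of all windows). The AP-1 letters TGANTCA were in 1 (Slc9a3r2), the PU.1 letters GAGGAAGT in 1 (Tm4sf5) and the interferon response element in 1 (Plekha4), against 7.04%, 3.15% and 3.38% of all windows. A match describes letters and not a bound site.

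Most of the LPS-only peaks were small, a property that the rule itself bears on and that is given as description. Their median width was 1132 bp (quartiles 964 to 1476), against 1395 bp in shared peaks and 1079 bp in PBS-only peaks. The median peak held 67.0 tags, against 152 in shared and 70.0 in PBS-only peaks. Per kb of peak this was 60 tags, against 108 in shared peaks and a mean of 14.3 per kb over the caller's genome size. The caller's score, its p-value as -10 log10, had a median of 71.3 where shared peaks had 330, and 195 of the 735 (26.5%) scored under 60 against 2.13% of shared peaks. A score of 100 or more was reached by 142 LPS-only peaks (19.3%), by 88.3% of shared peaks and by 35.4% of PBS-only peaks. In all, 572 (77.8%) had 50 to 99 tags and 45 had 200 or more.

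**Figure D1:**
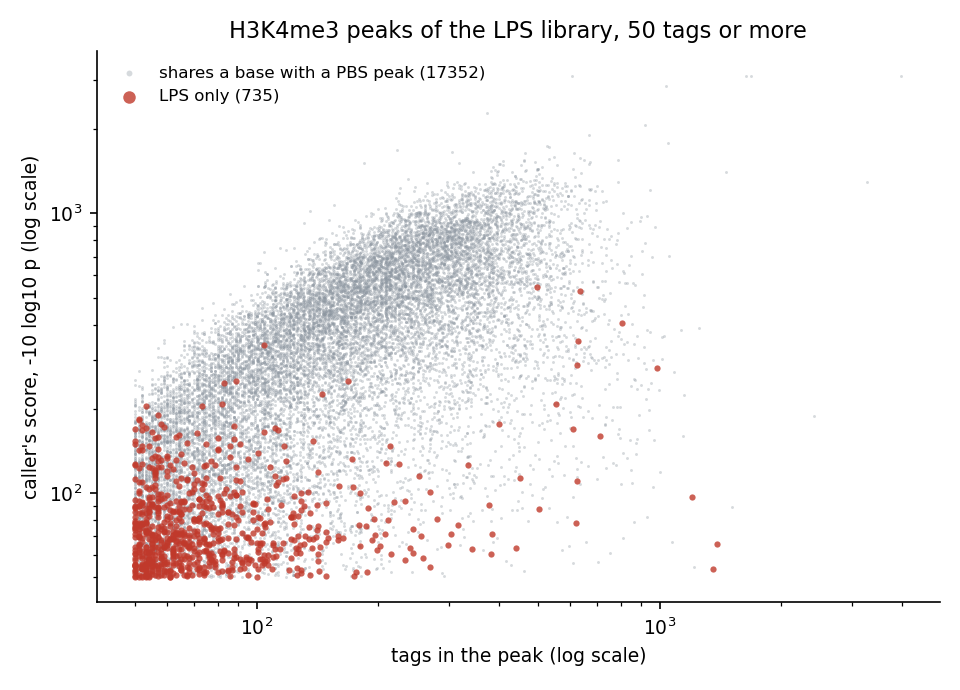
Each point is an H3K4me3 peak of the LPS library with 50 tags or more, with its tags on the x axis and the caller's score on the y axis, both on log scales; grey points share a base with a PBS peak and red points are LPS-only. The 735 LPS-only peaks crowd at the lower left with medians of 67.0 tags and 71.3 score, below shared peaks with the same number of tags.

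The tag minimum cut through a continuous distribution. There were 151 members with 50 to 54 tags and 202 unmatched peaks with 45 to 49, and 4892 unmatched peaks in all lay under the minimum. Among the members just inside, with 50 tags each, were peaks between genes at chr9:120728143-120728806 (score 170.01), chr10:14179419-14180302 (153.65) and chr5:51201121-51202026 (149.53), the last 350 kb from any PBS peak. Just outside, with 49 tags each, were a peak in Gm11639 on chromosome 11 (155.39), one in Wls on chromosome 3 (147.38) and one on chromosome 1 near Rps6kc1 (142.13).

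A minority stood far above this level. Of the 45 members with 200 tags or more, 21 lay within 1 kb of a protein-coding start. There were 14 members of 4 kb or wider, with 440 to 1388 tags, and 12 of them lay within 1 kb of a start. Shared LPS peaks of that width were also mostly at a start, 339 of 376. Ppp1r9b, which encodes the actin-binding scaffold spinophilin, had the most tags of any start, 1359 over 8.48 kb (chr11:94988281-94996763), and the nearest PBS peak was 12003 bp away with 276 tags. Tnfaip2, a TNF-inducible gene, had 1205 tags over 6.87 kb (chr12:111442502-111449372), with the nearest PBS peak 5.26 kb away and 106 tags. Fam20c, a kinase of secreted proteins, had 985 tags over 5.92 kb (chr5:138753128-138759051). Trim8, an E3 ligase that acts in TNF and interleukin signalling, had 806 tags over 4.37 kb (chr19:46500023-46504396), and the nearest PBS peak was 18.7 kb away. These 4 starts had no listed PBS H3K4me3 within 5 kb at all.

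Other members with many tags also lay at starts. Gnai2, an inhibitory G protein subunit, had 636 tags over 3.84 kb, and Csk, the kinase that restrains Src family kinases, had 628. Mef2d, a transcription factor, had 713, and Timp2, a metalloproteinase inhibitor, had 624. Pip5k1c, a lipid kinase of phosphoinositide synthesis, had 611 tags at its start and a second member of 299 tags 8.22 kb from the start. Spi1, which encodes the macrophage lineage factor PU.1, had 503 tags over 4.94 kb with a PBS peak 2125 bp away. Slc43a2 had the highest score of all members, 546.44, with 495 tags over 2.78 kb (chr11:75530339-75533116), and the nearest PBS peak was 17.1 kb away with 54 tags.

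A broad peak could carry a low score. The 14 peaks of 4 kb or wider scored 53.7 to 407, and 6 were under 100, among them Ppp1r9b at 53.72 and Tnfaip2 at 96.59. Per the file headers the caller took its background from a window of 10000 bp around the peak in the same library, and the Ppp1r9b peak alone is 84.8% as long as that window. Among shared LPS peaks of the same width, 29 of 376 scored under 100. By width, members made up 5.64% of LPS peaks under 1 kb, 4.31% at 1 to 2 kb, 1.87% at 2 to 4 kb and 3.59% (1.98 to 5.95) at 4 kb or wider. Whether PBS tags were low at these wide starts or were present under a score of 50 cannot be told apart from a peak list.

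The member with the most tags of all was not at a protein-coding start. It covered 7.58 kb of a transfer RNA cluster near Fcgr3 (chr1:171069604-171077181) with 1388 tags and a score of 65.68. PBS peaks lay on both sides within 5 kb, the nearest 216 bp away with 1174 tags. Peaks with a base within 5 kb, counted whole, summed to 4150 tags over 21.2 kb in LPS and 2111 tags over 8.52 kb in PBS. The LPS sum holds the member itself. Outside protein-coding starts and gene bodies, 29 members (3.95%) lay within 1 kb of a non-coding start, near the 3.91% of shared and 4.26% of PBS-only peaks. They included Neat1, the scaffold RNA of paraspeckles, with 378 tags and a PBS peak 1310 bp away, and the cluster of Mir23a, Mir27a and Mir24-2 with 132 tags and a PBS peak 2844 bp away.

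Many LPS-only peaks lay close to a PBS peak. The gap was at most 100 bp for 30, at most 1 kb for 154 (21.0%), at most 5 kb for 412 (56.1%) and at most 10 kb for 559 (76.1%). For PBS-only peaks the gap to the LPS list was at most 1 kb in 21.6% and at most 5 kb in 44.7%. There were 51 members with PBS peaks on both sides within 5 kb, 13 more than 50 kb from any PBS peak, and 300 with no other peak of either list within 5 kb.

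**Figure D2:**
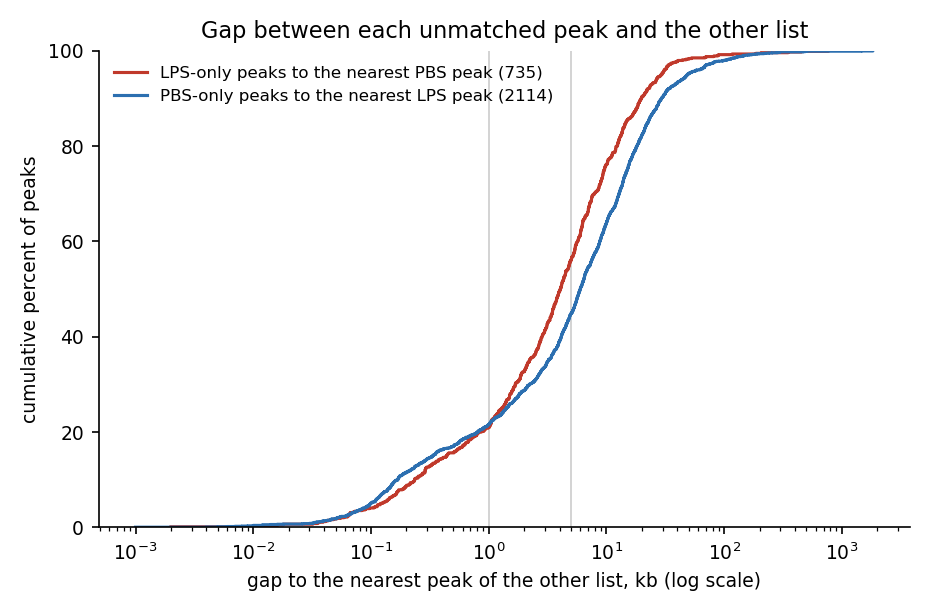
The curves give the cumulative percent of LPS-only peaks (red) by distance to the nearest PBS peak and of PBS-only peaks (blue) by distance to the nearest LPS peak, with the gap in kb on a log scale and grey lines at 1 and 5 kb. At 1 kb the curves nearly meet, at 21.0% and 21.6%, and at 5 kb they stand at 56.1% and 44.7%.

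For 54 of the 154 members within 1 kb of a PBS peak, that PBS peak was itself unmatched in LPS, so the 2 lists placed separate peaks side by side. At Actb, the cytoplasmic actin gene, the LPS list had 1 peak of 219 tags over 1.95 kb and the PBS list 1 peak of 553 tags over 3.18 kb, with 234 bp between them and nothing else listed within 5 kb in either list. At Usp18, the protease that removes the ubiquitin-like ISG15, LPS had 169 tags over 1.53 kb (chr6:121246921-121248448) and PBS 126 tags over 1.44 kb, 640 bp apart. At Mitf, a regulator of lysosomal genes, LPS had 124 tags and PBS 59, 566 bp apart. These pairs are described by their positions, and the peak edges depend on the caller.

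**Figure D3:**
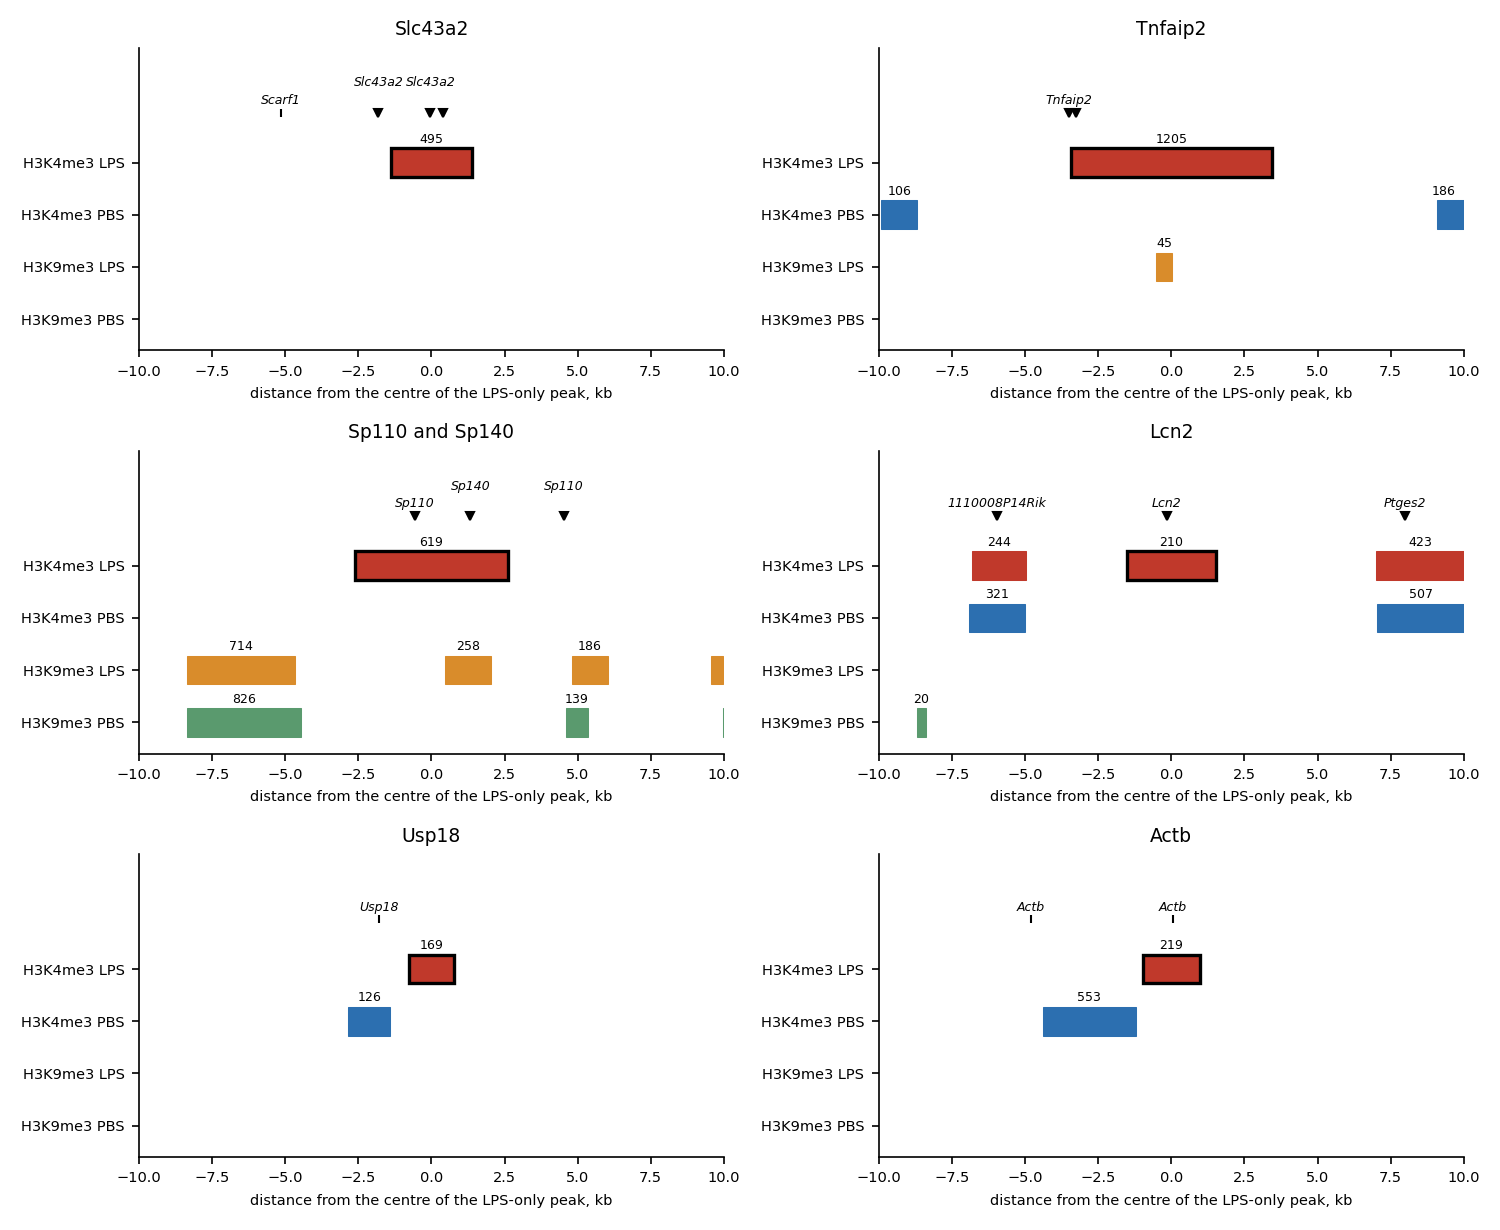
Listed peaks of the 4 libraries within 10 kb of 6 LPS-only peaks, which are outlined in black; bars are peaks with their tags above, the x axis is distance in kb, triangles are gene starts and ticks are gene ends of genes whose strand was not used, and labels of bars cut by the edge can be missing. Slc43a2 and the Sp110 and Sp140 pair have no PBS H3K4me3 peak in the window, whereas at Usp18 and Actb the PBS peak lies 640 and 234 bp away.

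The position of a peak relative to genes was not used to choose it. Of the 735, 111 (15.1%, 12.6 to 17.9) lay within 1 kb of a protein-coding start, 404 (55%, 51.3 to 58.6) lay in a gene body away from the start and 191 (26%, 22.8 to 29.3) lay between genes. Shared peaks were at a start in 73.9%, in a gene body in 15.0% and between genes in 7.20%. PBS-only peaks were at a start in 24.2% (22.4 to 26.1) and in a gene body in 51.4%. The nearest start was more than 10 kb away for 370 LPS-only peaks (50.3%), for 16.9% of shared and for 52.4% of PBS-only peaks.

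The number of tags moved with position, so the shares were also taken in classes of tags. Among peaks with 50 to 99 tags, 12.4% (9.82 to 15.4) of LPS-only, 48.6% of shared and 18.9% (17.1 to 20.9) of PBS-only peaks were at a start. With 200 tags or more the shares were 46.7% (31.7 to 62.1), 91.3% and 55.3% (45.2 to 65.1). In both classes the interval of LPS-only peaks lay wholly under the share of shared peaks. Against PBS-only peaks the intervals were apart in the lower class and overlapped in the upper one.

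**Figure D4:**
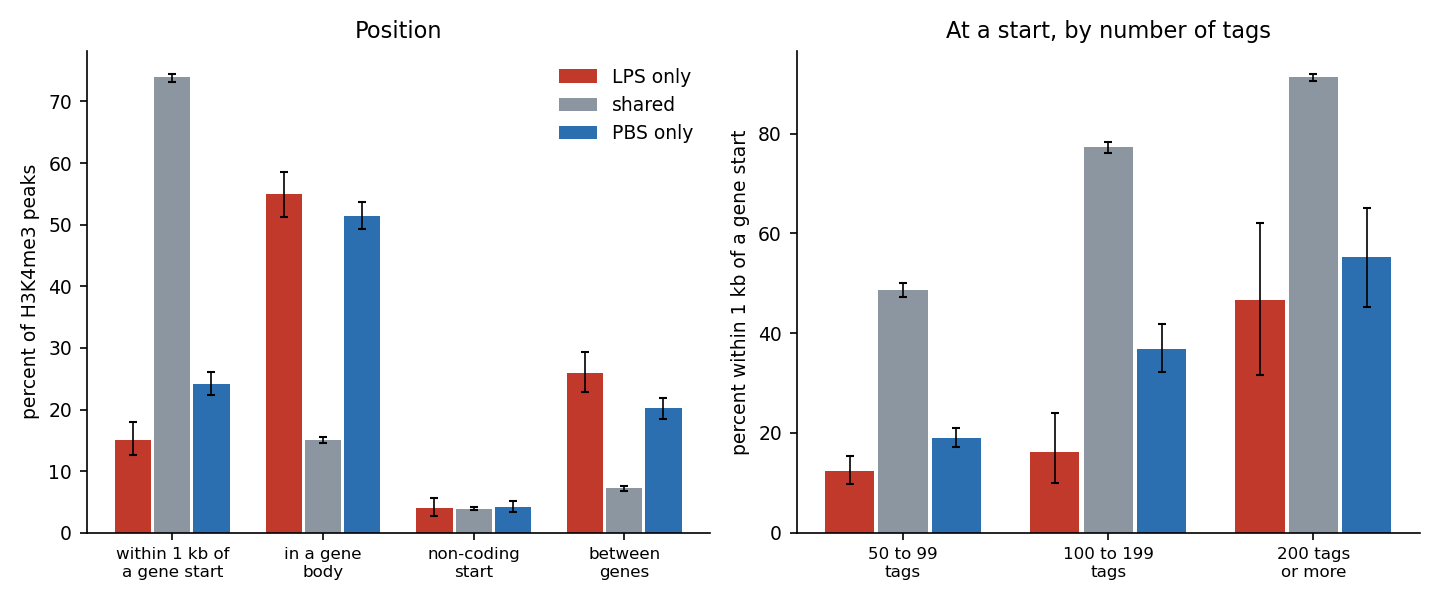
The left panel gives the percent of LPS-only (red), shared (grey) and PBS-only (blue) H3K4me3 peaks in each position class, and the right panel the percent within 1 kb of a gene start in classes of tags; error bars are exact 95% intervals for counting error. LPS-only peaks stand at 15.1% at a start and 55% in a gene body, against 73.9% and 15.0% of shared peaks.

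Where a stranded start lay within 5 kb but outside the peak, the side could be read. Of 139 such LPS-only peaks, 94 (67.6%, 59.2 to 75.3) lay downstream of the start, in the direction of transcription. The share was 69.2% (67.3 to 71.1) for shared peaks and 44.4% (39.1 to 49.7) for PBS-only peaks. For members within 1 kb of a PBS peak and near a stranded start, the LPS peak was the downstream one in 42 of 62 (67.7%, 54.7 to 79.1). For PBS-only peaks beside an LPS peak, the PBS peak was the downstream one in 99 of 257 (38.5%, 32.5 to 44.8). Where the PBS neighbour was itself unmatched, the LPS peak was the downstream one in 5 of 9 (55.6%, 21.2 to 86.3).

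Inflammatory mediators were among the gene lists met most often. Over all 21627 protein-coding genes, 0.559% had an LPS-only peak within 1 kb of a start and 2.34% had one there or in the gene body, while 2.60% and 6.69% had a PBS-only peak. Of 35 inflammatory mediators found in the gene table, 6 (17.1%) had an LPS-only peak at a start and 9 (25.7%) at a start or in the body. PBS-only peaks met 3 and 5 of them. The gene lists were drawn up with earlier results of these data known, so the counts describe the lists and are not independent support.

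Lcn2, the siderophore-binding lipocalin, had 210 tags over 3.05 kb across its start (chr2:32386366-32389416), between 2 peaks that both lists held at its neighbours. Csf3, the granulocyte growth factor G-CSF, had 202 tags over 2.99 kb with the nearest PBS peak 5758 bp away. Saa3, an acute-phase protein, and Ccl5, a chemokine, had 80 tags each, at 9081 and 4335 bp from a PBS peak. Il23a, a subunit of the cytokine IL-23, had 53 tags, 2864 bp from a PBS peak of 91. Cxcl10, an interferon-induced chemokine, had 50, and a PBS peak of 46 tags that covers its start lay 152 bp away. The peak in Nos2, the inducible nitric oxide synthase, had 72 tags and was 23.5 kb from a PBS peak. Csf1, the macrophage growth factor, had 2 members of 53 and 52 tags in its body. At Edn1, endothelin 1, the member of 75 tags lay 165 bp from a PBS peak of 44 tags. Of the 10 peaks at these genes, 5 had no PBS peak within 5 kb, and 2 scored 100 or more. Over all 735 members these shares were 43.9% and 19.3%.

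By the 1 kb window, interferon-stimulated genes were met mainly in their bodies, beside PBS peaks. That reading depends on the window, since 9 of them had a member at a start with 2.5 kb. Over all protein-coding genes the number went from 121 to 200. The peaks in Usp18, Ifit3, Gbp7, Ifih1 and Oas1a lay 1.01 to 1.26 kb from a start. Of 42 genes, 2 (4.76%) had an LPS-only peak at a start and 11 (26.2%) at a start or in the body, and PBS-only peaks met 8 by either measure. The members were Ifih1, the RNA sensor MDA5, with 129 tags, Oasl2 with 105, Gbp7 with 87, Oas1a with 80, Ifit1 with 64, Gbp3 with 62, Gbp2 with 56, Ifit3 with 54, and Ifit2 and Stat2 with 51 each, besides Usp18. The Oas genes make the oligoadenylate messenger of RNase L, Gbp genes encode GTPases against intracellular pathogens, and Ifit proteins bind viral RNA. Of these 11 peaks, 9 (81.8%) lay within 1 kb of a PBS peak, at gaps of 89 bp (Gbp2) to 932 bp (Stat2), against 21.0% of all members. Another LPS peak lay within 1 kb of 8 of them, and of 15.1% of all members. Peaks with a base within 5 kb were summed whole, and each LPS sum holds the member itself, which the rule chose. At Ifih1 the sums were 284 tags in LPS, 129 of them in the member, and 248 in PBS. At Oas1a they were 219 in LPS, 80 of them in the member, and 156 in PBS. At Ifit1 they were 207 in LPS, 64 of them in the member, and 106 in PBS. At Gbp2 the sums were 90 in LPS and 119 in PBS, and at Stat2 147 and 155, so the listed tags were not higher in LPS at every gene. None of the 11 met an H3K9me3 peak, and 1 (Ifit2) was more than 5 kb from a PBS peak. Over all members these shares were 19.6% and 43.9%.

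By the 1 kb window, genes of the LPS signalling pathway were met mostly in their bodies. With a window of 2.5 kb, 5 of them had a member at a start. The peaks in Ripk2, Nfkbiz and Irak2 lay 1.06, 1.86 and 2.12 kb from a start. Of 56 genes of NF-kB and Toll-like receptor signalling, 2 (Tnfaip2 and Trim8) had a member at a start and 9 (16.1%) at a start or in the body, while PBS-only peaks met 2 and 10. Tnip1, a partner of the A20 inhibitor, had 258 tags 1397 bp from a PBS peak, and Irak2, a kinase below Toll-like receptors, had 135 tags. Tbk1, the kinase that activates IRF3, had 92, and Ripk2, the kinase of NOD signalling, and Nfkbiz, an inducible nuclear NF-kB regulator, had 70 each. Irak3, an inhibitory member of the Irak family, had 61, and Nfkb1 had 2 members of 51 and 55.

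Antigen presentation had 3 of 23 genes (13.0%) with a member at a start. No gene of the list had a PBS-only peak at a start, and 2 (8.70%) had one in the body. The peak of 625 tags at H2-DMa, a chaperone of class II loading, also covers starts of Brd2, and a PBS peak of 498 tags lay 113 bp away. Nlrc5, the class I transactivator, had 125 tags 215 bp from a PBS peak of 219, and H2-Oa had 78 tags 7022 bp from one.

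Among the other lists, actin, adhesion and guanine exchange genes had members at or in 6 of 44 (13.6%) and PBS-only peaks at or in 21. Developmental homeobox and patterning factors had 7 of 71 (9.86%) against 14, and 5 of their 7 peaks lay within 1 kb of a PBS peak, for example Hoxb7 with 100 tags at 13 bp and Dlx6 with 53 tags at 35 bp. Of 31 semaphorins and plexins none had a member and 7 had a PBS-only peak. Of 20 SUN, LINC and lamina genes, the group that the series' title refers to, 3 had a member in the body: Lmna, encoding lamin A, with 70 tags, Syne3 with 129 and Sun5 with 59, and PBS-only peaks also met 3. Members were at or in 3 of 30 genes of lysosome and phagocytosis, 3 of 26 neuronal genes, 2 of 35 genes of macrophage identity, 2 of 35 lipid and metabolic genes, 1 of 18 of alternative activation, 1 of 42 AP-1, Egr, Klf and Cebp factors, 1 of 26 housekeeping genes and 0 of 35 H3K4 and H3K9 methylation enzymes. No T cell, B cell or mesothelial, fibroblast and endothelial marker had a member. Camp, the cathelicidin of neutrophil granules, had 56 tags with a score of 157.13 at its start and was the 1 neutrophil marker of 16, and Gata2 and Hdc of the eosinophil and mast cell list had members of 72 and 55 tags in the body. The part of other cells in these entries was not tested.

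Some members lay in groups. There were 12 runs of 3 or more members with at most 50 kb between neighbours, holding 37 of the 735 members. Runs were not counted among shared or PBS-only peaks, so whether members group more than other peaks was not tested. One run crossed Sp110, Sp140 and Sp100, readers of chromatin that interferon induces, with peaks of 619, 240 and 81 tags at 10442, 23349 and 6242 bp from a PBS peak. Another, at Bicra, a subunit of a SWI/SNF-type remodelling complex, held 4 members of 52 to 141 tags. Runs also lay in Itpkb, in and beside Csf1, and from Pip5k1c to Gipc3. A run between genes on chromosome 11 had 82, 65 and 91 tags. The start nearest to the first pair was that of Asic2, an acid-sensing ion channel, at 28.9 and 30.4 kb, and the start nearest to the third was that of Ccl2, the monocyte chemokine, at 24.1 kb. The run at the Oas1 genes had 75 tags in Oas1g and 80 in Oas1a. By chromosome the share of LPS peaks that were LPS-only ran from 2.79% on chromosome 13 to 5.26% on chromosome 11, and was 1.13% (0.310 to 2.88) on X, with 4 of 353. The 3 X members with the most tags had 61, 52 and 51.

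H3K9me3 was measured in separate libraries and played no part in the choice. Of the 735 members, 124 (16.9%, 14.2 to 19.8) met a peak of the H3K9me3 LPS list and 90 (12.2%, 9.96 to 14.8) one of the H3K9me3 PBS list. Both lists were met by 70, and either by 144. Shared peaks met them in 21.3% and 16.8%, and PBS-only peaks in 3.36% (2.63 to 4.22) and 3.03% (2.34 to 3.85). Per Mb covered, LPS-only peaks met 136 and 105 H3K9me3 peaks, shared peaks 145 and 114, and PBS-only peaks 29.2 and 26.9.

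The direction against shared peaks depended on the class of tags. With 50 to 99 tags, 16.8% (13.8 to 20.1) of LPS-only peaks met an H3K9me3 LPS peak, against 9.42% (8.64 to 10.3) of shared and 2.55% (1.84 to 3.45) of PBS-only peaks. At 100 tags or more and under 200 the LPS-only share was 16.1% (9.98 to 24.0), an interval that holds the 13.3% of shared peaks. With 200 tags or more the direction turned, at 20% (9.58 to 34.6) of LPS-only and 38.2% (37.0 to 39.4) of shared peaks. By position the shares of LPS-only and shared peaks meeting the same list were close, at 23.4% and 22.9% at a start, 13.4% and 15.8% in a gene body, and 20.4% and 19.4% between genes. At a score of at least 100 and under 200 the shares were 37.0% (28.6 to 46.0) of 127 LPS-only, 11.8% (10.7 to 12.9) of shared and 2.61% (1.55 to 4.09) of PBS-only peaks. The H3K9me3 list of the PBS library, which shares no treatment with the list the members came from, gave 29.1% (21.4 to 37.9), 8.21% (7.31 to 9.18) and 1.74% (0.902 to 3.02) in the same score class. Among members scoring under 100 the shares were 11.6% and 7.93%. Members with no PBS H3K4me3 peak within 5 kb met the H3K9me3 LPS list in 23.5% (19.0 to 28.5) and those with one within 1 kb in 10.4% (6.06 to 16.3).

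**Figure D5:**
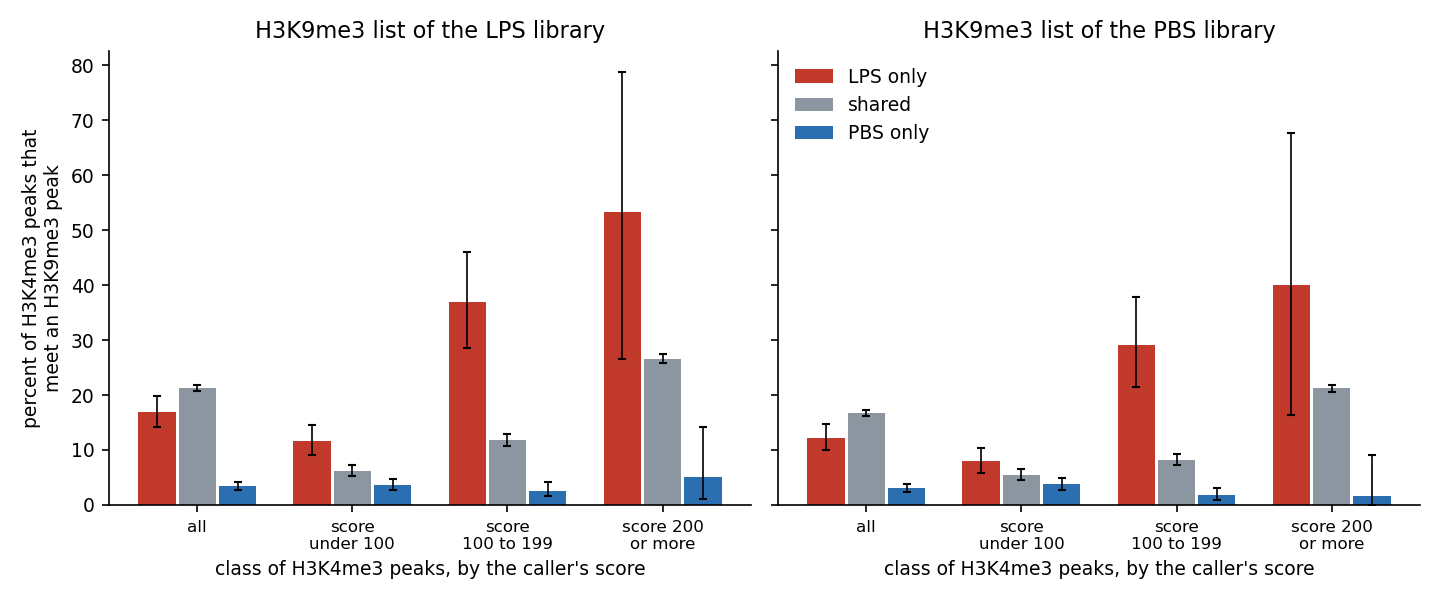
Percent of LPS-only (red), shared (grey) and PBS-only (blue) H3K4me3 peaks that share a base with an H3K9me3 peak of the LPS library (left) or the PBS library (right), for all peaks and in classes of the caller's score; error bars are exact 95% intervals for counting error. At scores of at least 100 and under 200 the LPS-only share is 37.0% on the left and 29.1% on the right, against 11.8% and 8.21% of shared peaks.

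In the 70 members that met both H3K9me3 lists, the median H3K9me3 peak sum was 61.0 tags in LPS and 47.0 in PBS. The largest H3K9me3 values lay in Fyb, an adaptor of immune receptors, whose member of 451 H3K4me3 tags met 697 H3K9me3 tags in LPS and 67 in PBS. The member of 240 tags in Sp140 met 258 in LPS and 461 in PBS. A member of 104 tags with a score of 338.65 lay between genes on chromosome 12 (chr12:10961390-10963035), 186 kb from the nearest PBS H3K4me3 peak, and met 151 and 107. At the Sp110 and Sp140 starts an H3K9me3 LPS peak of 258 tags lay in the member and no PBS peak did. Hsf5, a heat shock factor of the germline, had 83 H3K4me3 tags with 65 and 33 H3K9me3 tags. The caller's fragment estimate was 71 and 66 bp in the H3K9me3 libraries, against 149 and 142 bp for H3K4me3. No control library enters the lists, and the part of local tag density common to all libraries in these overlaps was not tested.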

How the data were processed

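H3K4me3 and H3K9me3 were profiled by ChIP-seq in LPS- and PBS-treated mouse macrophages, 1 library each. Tools credited to the submitters' processing notes are MACS 1.4.2, Bowtie 0.12.8, CASAVA 1.4 and DiffBind, with mm10 as the build. Peak calling was done library by library and without a control, per the file headers, using a p threshold of 1e-05, a band width of 300 bp, a background window of 10000 bp and at most 1 tag per position. Each deposited table gives per peak the count of tags, the caller's score (minus 10 times the base 10 logarithm of p, so a log10 scale) and a fold enrichment, the caller's ratio to its background. Peak positions are 1-based. The authors' score and fold were used only within a list.

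Peaks were compared in Python 3.11.15 with scipy 1.17.1, and the number of members was checked against bedtools 2.31.1. The code was tested on simulated intervals. Shared means at least 1 bp in common. Gene starts came from RefSeq (GRCm38.p6): annotated starts with strand for 17273 protein-coding genes, and both gene ends for 4354 others, among them Trim8, Gnai2, Spi1, Actb, Csf3, Ccl5, Il23a and Usp18. No genome sequence was used, so peak sequences away from starts were not analysed here. Of 641 listed symbols in 21 lists, 637 matched a gene.

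The members and lists were chosen with earlier results of these data known. Peaks were named by a rule: the 12 with most tags at a start, the 10 with the highest score, the 8 with most tags per kb, the 8 with most tags and no PBS peak within 5 kb, up to 4 genes a list, the 3 either side of the tag minimum, up to 6 with H3K9me3 and 3 on X. Others that are named, the 6 mapped peaks and the 6 printed promoters were chosen after their values were seen. Alternatives changed the tag minimum, score, gap, overlap, start window and H3K9me3 threshold.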

Additional observations from a re-analysis of the deposited data

Results flagged for a closer look

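The rule for LPS-only peaks leaves out the Y chromosome, where the H3K4me3 LPS list has 27 peaks and the PBS list 30. Of the 27, 11 shared no base with a PBS peak and 14 held 50 tags or more. By the same rule 5 would have been LPS-only. The peak with the most tags held 412 in LPS and 373 in PBS. There are no control samples without a Y chromosome, and no use was made of these peaks.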

How the results depend on the processing

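No paired analysis was possible because each group held 1 library, and no library could be left out. Of 57 alternatives to 11 results, 16 stayed within the interval or 1.5 times of the value reported, and 41 moved. Each value is a count, share or median that cannot change sign. These labels therefore do not tell whether a direction against shared or PBS-only peaks held.

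The number of LPS-only peaks was 2321 (9.99% of LPS peaks) with a minimum of 30 tags, 163 (1.32%) with 100 tags and 142 (0.918%) with a score of 100 or more. It was 323 (1.79%) with no PBS peak within 5 kb and 1984 (11%) when only PBS peaks of score 100 or more counted. The percent became 3.21 with no PBS peak within 1 kb and 5.17 when sharing needed 50% of the LPS peak. PBS-only peaks numbered 749 with a score of 100 or more and 1168 with no LPS peak within 5 kb. Median width was 775 bp with 30 tags, 2016 bp with 100 tags and 1177 bp with score 100, and tags per kb were 53.2, 73.1 and 63.0, or 56.6 with no PBS peak within 5 kb. The percent within 1 kb of a PBS peak was 14.9 with 30 tags and 14.8 with score 100.

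The percent at a start was 12 with a window of 0.5 kb, 24.1 with 2.5 kb, 9.56 with 30 tags, 24.5 with 100 tags, 12.1 with no PBS peak within 5 kb and 10.7 when only stranded starts were used. The percent meeting H3K9me3 of the LPS library was 6.53 with H3K9me3 peaks of score 100, 20.3 within 1 kb, 38.7 for members of score 100 and 23.5 with no PBS peak within 5 kb. For the PBS library these were 5.85, 30.3 and 16.7, apart from the 1 kb window, which stayed inside the interval. Genes with a member at a start numbered 200 with 2.5 kb, 42 with no PBS peak within 5 kb and 507 with gene bodies. The median CpG count was 23.5 with 100 tags and 24.0 with score 100, both above the 23.0 of shared windows where the reported 15.5 is below it. The cause of each shift was not tested, except that a higher minimum leaves fewer peaks by construction. Shortening the PBS list to the length of the LPS list by score (871 LPS-only and 1884 PBS-only peaks), leaving out members with H3K9me3 or of 3 kb or wider, the stranded starts and the gene bodies were alternatives added after seeing the data.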
